A study of Mus musculus with 6 samples.

Results

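Laminins are the network-forming proteins of basement membranes, and integrins and CD44 are receptors through which cells hold on to the matrix. The 9 genes described here encode 5 laminin chains (Lama2, Lama3, Lamb1, Lamb2 and Lamc1), 3 integrin subunits (Itgav, Itgb1 and Itgb5) and CD44 (Cd44), and they were chosen by gene symbol from the 203 genes named on a focused array of 223 probes. Each has 1 probe. The muscle was the soleus, which is slow and postural, from C57Bl/6 mice whose hindlimbs had been suspended and so bore no weight. All 6 arrays come from suspended animals, and 3 microgram of total RNA from cryosections was used for each array. The sample titles carry the marks HUR, wt and HS7. The sources used here give no age or sex, state no length of suspension and do not explain HUR or HS7. Unsuspended animals were not analysed here. The values are therefore levels in unloaded muscle and their spread between arrays, with no comparison between conditions.

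A laminin is a cross-shaped trimer of 1 alpha, 1 beta and 1 gamma chain. In skeletal muscle the fibre's basement membrane is built mainly from trimers of the Lama2, Lamb1 and Lamc1 products, while the Lamb2 product is concentrated at neuromuscular and myotendinous junctions and in vessel walls. The Lama3 chain is best known from epithelial basement membranes. Fibres bind laminin through dystroglycan and through integrins that contain the Itgb1 product. The Itgav product pairs with those of Itgb1 or Itgb5 to bind vitronectin and fibronectin, and CD44 binds hyaluronan.

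Promoter sequence is shown for Lamb2 and Itgb5, because the ratio of their intensities varied least between arrays of all member pairs, and for Itgb1, which took the opposite course on the array that stood apart. Each line gives the 250 bases before the annotated start, 5′ to 3′ on the plus strand, from RefSeq (GRCm38.p6), whose table of promoter sequences matched 7 of the 9 genes. The Lamb2 window is chr9:108479612-108479861, the Itgb5 window chr16:33829415-33829664 and the Itgb1 window chr8:128685404-128685653. Capitals mark the GC box, the letters GGGCGG or, on the other strand, CCGCCC.
Lamb2: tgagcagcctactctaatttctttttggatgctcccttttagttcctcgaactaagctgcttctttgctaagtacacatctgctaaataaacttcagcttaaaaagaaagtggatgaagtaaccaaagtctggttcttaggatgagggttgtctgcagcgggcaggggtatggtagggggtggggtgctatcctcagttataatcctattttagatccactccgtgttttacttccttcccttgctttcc
Itgb5: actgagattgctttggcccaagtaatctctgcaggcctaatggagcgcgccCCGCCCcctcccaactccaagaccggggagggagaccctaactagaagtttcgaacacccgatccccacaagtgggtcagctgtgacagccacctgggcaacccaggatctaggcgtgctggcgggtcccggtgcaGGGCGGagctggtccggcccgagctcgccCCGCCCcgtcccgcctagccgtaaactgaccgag
Itgb1: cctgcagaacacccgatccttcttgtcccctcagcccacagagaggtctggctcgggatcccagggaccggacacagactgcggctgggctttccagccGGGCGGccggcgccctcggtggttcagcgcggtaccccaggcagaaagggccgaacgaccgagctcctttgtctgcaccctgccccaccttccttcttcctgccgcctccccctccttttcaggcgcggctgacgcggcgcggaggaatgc

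The Itgb5 window held 3 GC boxes, the Itgb1 window 1 and the Lamb2 window 0, and a GC box was found in 32.7% of 32851 mouse promoter windows of this length. None of these 3 windows held a CCAAT box (CCAAT or ATTGG, in 33.8% of all windows) or a TATA box (TATAAA or TTTATA, in 12.4%). The share of G and C was 65.2% for Itgb5, 68.0% for Itgb1 and 43.6% for Lamb2, against a median of 52.4% over all windows, and CpG steps numbered 18, 21 and 3 against a median of 6. The letters of the Lamb2 and Itgb5 windows differed in GC boxes, share of G and C and CpG steps. Their relation to the levels of these genes was not tested. A match is a description of these letters and not of a bound site.

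Of the 9 genes, 8 had a deposited intensity above 0 on all 6 arrays, and Lamb1 did not. The same held for 76.7% of all 223 probes. The deposited intensities are linear and already background-subtracted, so a value at or below 0 is treated as not detected. A stricter reading takes the depth to which an array's values went below 0, between 0.0005 and 0.002, as the noise left by the subtraction, and asks that a value exceed it. By that reading 6 of the 9 genes were detected on every array, against 60.1% of all probes. Itgav then passed on 4 arrays, Cd44 on 3 and Lamb1 on 0. Levels are given below as the log2 of the intensity minus the array's median over the 171 probes above 0 throughout, so that 1 unit is a factor of 2. Probes differ in how well they label and hybridise, so the level of one gene is not set against that of another.

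**Figure D1:**
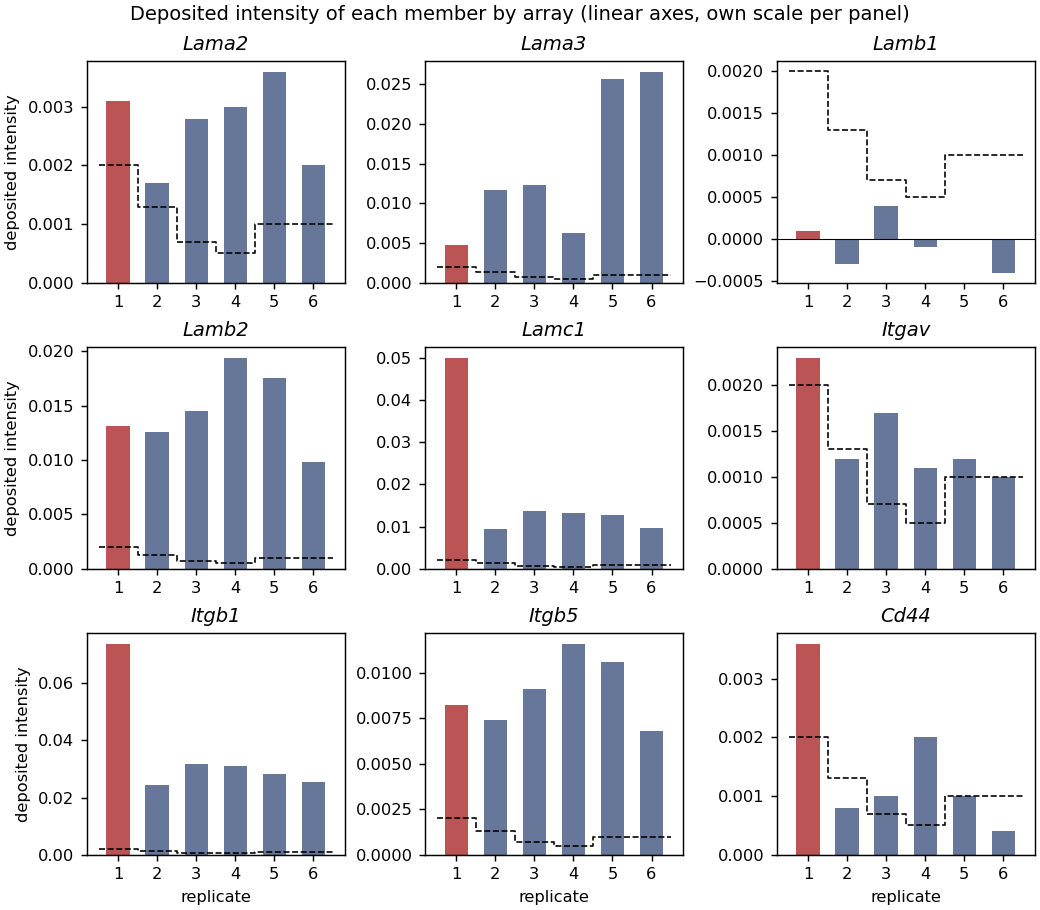
Deposited intensity (vertical axis, linear, own scale in each panel) of the 9 genes on replicates 1 to 6 (horizontal axis), with replicate 1 in red and the depth below 0 that each array reached (its noise) as a dashed line. Lamc1 and Itgb1 stand out on replicate 1 at 0.05 and 0.0738, Lamb1 stays under the dashed line on every array, and Itgav and Cd44 lie near it.

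Replicate 1 stood apart as a whole array. Its values summed to 37.5, against 15.3 to 18.5 on the others, and its correlation with them over the 171 probes was 0.857 to 0.911, against 0.957 to 0.977 among the others. The main results below are therefore also given without it. Muscle fibre markers were present, as the label has it. Of the 8 listed, 6 were probed (Myh7, Myh1, Myh2, Myh4, Mb and Des) and all 6 were above 0 on every array. Of other cell types' markers, 5 of 6 endothelial genes were probed and above 0 throughout. So were the 1 probed gene each of the fibroblast (Pdgfra), fat (Fabp4) and epithelial (Lamb3) lists, but Lamb3 exceeded the noise on 1 array only. The 1 probed leukocyte gene, Il1b, was above 0 on 2 arrays, and no nerve marker was probed. In such bulk RNA, fewer cells of a type and less RNA per cell cannot be told apart. Nothing in the labels says that each array came from its own animal, so the spread may be partly technical.

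The alpha chains behaved differently. Lama2, the alpha chain of muscle laminin, had intensities of 0.0031, 0.0017, 0.0028, 0.003, 0.0036 and 0.002 on replicates 1 to 6. It was lowest on replicate 2 and highest on replicate 5, and each value exceeded its array's noise. Its level was -1.70 ± 0.32 (SD, n = 6), with an SD of 0.34 without replicate 1 and of 0.51 with equal array totals. With a pseudocount of 0.002 added before the log the SD was 0.20. On replicate 2 its value was close to the noise of 0.0013. Lama3, the epithelial alpha chain, had intensities of 0.0047, 0.0117, 0.0123, 0.0063, 0.0257 and 0.0266. Replicates 5 and 6 were high and replicates 1 and 4 low, with the other 2 between them. The level of Lama3 was 0.49 ± 1.28 (SD, n = 6) and its SD exceeded that of 97.1% of the 171 probes. Without replicate 1 the SD was still 1.05 (n = 5), and it lay between 1.02 and 1.43 under every scaling, filter and left-out array tried. With median centring Lama3 was the most variable of the 8 genes, at a signal above noise on every array, whereas without centring Cd44 had the larger SD (1.10 against 1.02).

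Lamb3 encodes a beta chain of epithelial laminin that assembles with the Lama3 chain. It was above 0 on all 6 arrays, at 0.0001, 0.0001, 0.0006, 0.0025, 0.0007 and 0.0002, but passed the noise on replicate 4 only, where Lama3 was among its lowest. Whether Lamb3 followed Lama3 cannot be read from values within noise.

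The beta chains split into one detected and one not detected. Lamb1, the beta chain of fibre laminin, had intensities of 0.0001, -0.0003, 0.0004, -0.0001, 0 and -0.0004. These values lay at or below 0 on 4 arrays and scattered around 0 on all, so no level is given. Lamb1 has 1 probe, so a low transcript level cannot be told apart from a probe that labels or hybridises poorly. For the matrix gene Fn1, 1 probe was above 0 on 1 array, while another was above noise on all 6. Lamb2 had intensities of 0.0131, 0.0126, 0.0145, 0.0194, 0.0175 and 0.0098. Replicates 4 and 5 were highest and replicate 6 lowest in intensity, all well above noise. The level of Lamb2 was 0.73 ± 0.32 (SD, n = 6). After centring replicate 1 was the lowest array, and without it the SD was 0.20 (n = 5).

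Lamc1, the gamma chain shared by most laminins, was far higher on replicate 1 than on the other arrays. Its intensity was 0.05 there and 0.0093, 0.0137, 0.0133, 0.0128 and 0.0096 on replicates 2 to 6. Replicate 1 did not overlap the others, which lay within a narrow band. The level was 0.80 ± 0.66 (SD, n = 6) with all arrays and 0.53 ± 0.16 (SD, n = 5) without replicate 1. On that array it lay 1.59 above the mean of the others on the log2 scale.

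Among the integrin subunits, Itgb1 showed the same course. Itgb1, the beta subunit common to most matrix receptors of muscle, had intensities of 0.0738 on replicate 1 and 0.0245, 0.0318, 0.0309, 0.0283 and 0.0255 on the others. Replicate 1 was again the only high array. The level was 1.95 ± 0.38 (SD, n = 6) and 1.81 ± 0.14 (SD, n = 5) without replicate 1, which lay 0.87 above the mean of the others. Without replicate 1, Itgb1 had the smallest SD of the 8 genes.

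Itgb5, a beta subunit that pairs with the Itgav product, had intensities of 0.0082, 0.0074, 0.0091, 0.0116, 0.0106 and 0.0068. As for Lamb2, replicates 4 and 5 were highest and replicate 6 lowest. Its level was 0.05 ± 0.30 (SD, n = 6) and 0.15 ± 0.15 (SD, n = 5) without replicate 1. Itgav, the alpha subunit, had intensities of 0.0023, 0.0012, 0.0017, 0.0011, 0.0012 and 0.001. It exceeded the noise on replicates 1, 3, 4 and 5, and its level of -2.65 ± 0.32 (SD, n = 6) lies close to the limit of detection. One step in the last deposited decimal at its lowest value is 0.14 on the log2 scale.

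Cd44, the hyaluronan receptor, had intensities of 0.0036, 0.0008, 0.001, 0.002, 0.001 and 0.0004. It was highest on replicate 1, next on replicate 4 and lowest on replicate 6. The level was -2.89 ± 0.81 (SD, n = 6) and -3.13 ± 0.62 (SD, n = 5) without replicate 1. A step in the last decimal is 0.36 at its lowest value, and with a pseudocount of 0.002 added before the log its SD was 0.21, so the spread of Cd44 lies partly within noise.

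The median SD of the 8 genes was 0.35, beside 0.48 over all 171 probes, and without replicate 1 the medians were 0.25 and 0.34. Of the 8 genes, 5 (Lama2, Lamb2, Itgav, Itgb1 and Itgb5) had an SD under 0.5, which is 62.5%, beside 52.0% of all probes. The median of the 8 depended on the scaling and was 0.52 without centring, 0.53 with equal totals and 0.55 with quantile normalization.

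After centring, replicate 1 was the highest of the arrays for 3 of the 8 genes (Lamc1, Itgb1 and Cd44). It was the lowest for 3 (Lama3, Lamb2 and Itgb5). The shares over all 171 probes were 39.2% and 28.1%. The shares of the 8 genes therefore lay near those of the whole array. The highest or lowest of the arrays lay past Dixon's critical ratio for 2 of the 8, Lamc1 and Itgb1, both on replicate 1, and for 15.8% of all probes. Relative to the mean of the other arrays, replicate 1 was at 1.45 for Cd44 (0.47 with the pseudocount, 3 of the other 5 arrays being within noise), -0.64 for Itgb5, -0.65 for Lamb2 and -2.14 for Lama3 on the log2 scale. The direction of these 4 genes, of Lamc1 and of Itgb1 was the same with each of the scalings tried and with the pseudocount. Without centring, however, the differences of Lamb2 and Itgb5 were only -0.13 and -0.12. The difference of Itgav was 0.39, but -0.18 with equal totals and -0.02 with the pseudocount, and that of Lama2 was -0.23, but 0.30 without centring. The median of such differences over all probes was 0.13 after centring, 0.65 without it and -0.45 with equal totals. After that median was subtracted, the differences were 1.46 for Lamc1, 1.33 for Cd44, 0.75 for Itgb1 and 0.27 for Itgav. They were -0.35 for Lama2, -0.77 for Itgb5, -0.78 for Lamb2 and -2.26 for Lama3. These values are the same under the 3 scalings by construction, because each scaling shifts a whole array by 1 amount. With quantile normalization and with the pseudocount they can differ, and were 1.51 and 0.43 for Cd44 and 0.53 and -0.06 for Itgav. The other genes kept their direction under both.

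Muscle fibre and fat markers were also high in intensity on replicate 1. The sum of all values on that array was itself 37.5, against 15.3 to 18.5. The summed intensity of the 6 muscle fibre genes was 6.61 there and 2.29 to 3.01 on the other arrays. After median centring all 6 were above the mean of the others, by 0.46 (Mb) to 1.85 (Myh2). Their differences were not recomputed with equal totals, under which the median over all probes was -0.45 instead of 0.13. Fabp4 was at 0.084 on replicate 1, against 0.0255 to 0.0365. The summed intensity of the 5 endothelial genes was 0.0711 on replicate 1, within the 0.0698 to 0.0871 of the others, and 1 of the 5 (Tek) was above the mean of the others after centring. Pdgfra was at 0.0073, against 0.0025 to 0.0047. The part of these cell types in the values of Lamc1, Itgb1, Lamb2 and Itgb5 was not tested.

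**Figure D2:**
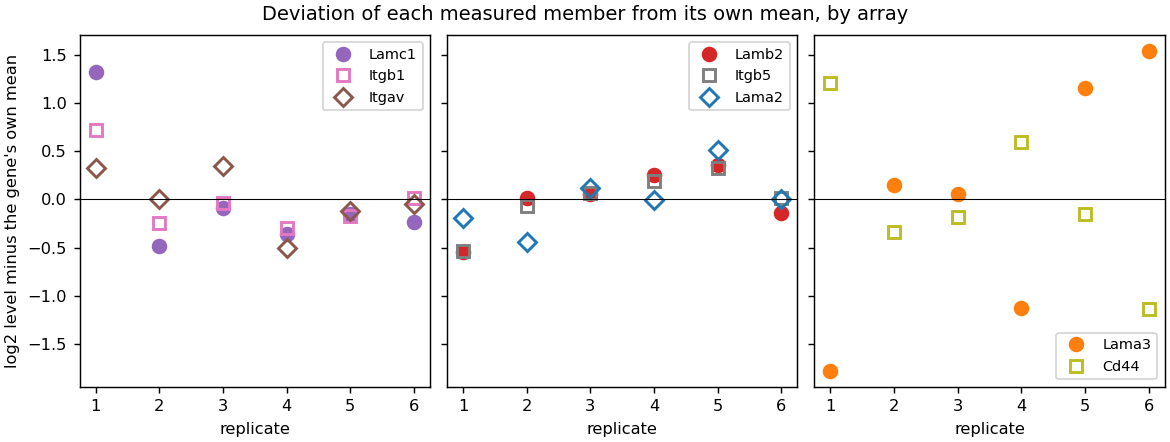
Log2 level of the 8 detected genes minus each gene's own mean (vertical axis) on replicates 1 to 6 (horizontal axis), in 3 panels with a shared scale. Lamc1 and Itgb1 are high on replicate 1, Lamb2 and Itgb5 nearly coincide on every array and are low on replicate 1, and Lama3 and Cd44 mirror each other.

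Lamb2 and Itgb5 moved together on every array. Their levels had a Pearson correlation of 0.96 and a Spearman correlation of 0.94 over the 6 arrays, and 0.88 and 0.90 without replicate 1. A ratio within an array does not depend on a factor by which whole arrays are scaled. Relative to its own mean, the log2 ratio of Lamb2 to Itgb5 was -0.01 on replicate 1, 0.08 on replicate 2, -0.01 on replicate 3, 0.06 on replicate 4, 0.04 on replicate 5 and -0.16 on replicate 6. Its SD was 0.09, and 0.041% of the 14535 pairs of probes had an SD as small. Without replicate 6 the SD was 0.04, and with quantile normalization it was 0.14. The pair was picked out after its values were seen, so this is a description without a test. The products of these genes are not known to form one complex.

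Lamc1 and Itgb1 had a Pearson correlation of 0.97 and a Spearman correlation of 0.77, and this likeness rested mainly on replicate 1. Without that array the values were 0.68 and 0.60. The log2 ratio of Lamc1 to Itgb1 was 0.60 above its mean on replicate 1, while the other arrays ran from -0.25 to 0.01, so Lamc1 lay further above its usual level there than Itgb1. Its SD was 0.31 with all arrays and 0.12 without replicate 1.

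Lama3 and Cd44 ran opposite to each other. The Pearson correlation was -0.93 and the Spearman correlation -0.83 over 6 arrays, and -0.86 and -0.70 without replicate 1. Replicates 1 and 4 were lowest for Lama3 and highest for Cd44, and replicate 6 was the reverse. Over the other scalings and left-out arrays the Pearson correlation lay between -0.995 and -0.79. The Cd44 intensity did not exceed the noise on replicates 2, 5 and 6, which bears directly on the size of this relation.

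Of the 28 pairs among the 8 genes, 2 had a Pearson correlation of 0.9 or more, against 2.55% of all pairs of probes, and 1 had one of -0.9 or less, against 2.49%. Without replicate 1 both counts were 0, against 2.77% and 2.20% of all pairs, and the 28 values ran from -0.86 to 0.88. These limits were chosen after the values were seen. A positive correlation was found in 12 of the 28 pairs (42.9%) and in 50.9% of all pairs of probes. The median over the 28 was -0.13, beside 0.02 for all pairs of probes, and without replicate 1 it was 0.30 beside 0.01. The 28 pairs share 8 genes and the same arrays and are not independent.

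**Figure D3:**
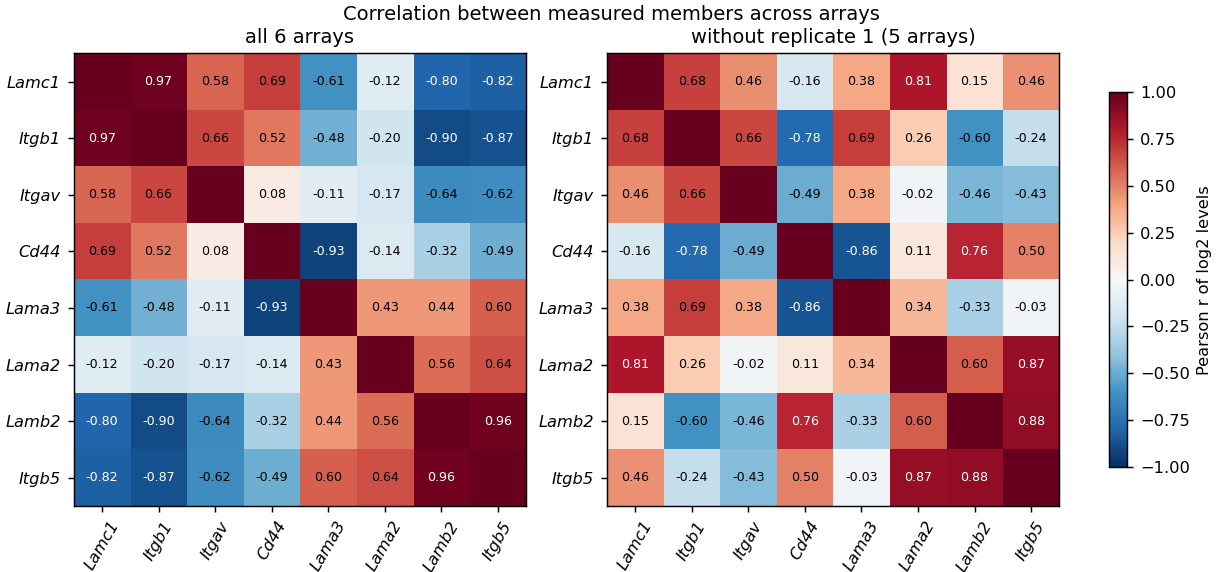
Pearson correlation of log2 levels (colour and printed value) between the 8 detected genes over all 6 arrays (left) and over 5 arrays without replicate 1 (right). The values of 0.96 for Lamb2 with Itgb5 and -0.93 for Lama3 with Cd44 become 0.88 and -0.86, while that of Lamb2 with Lamc1 goes from -0.80 to 0.15.

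Chains and subunits that assemble with each other, or bind each other, were compared to see whether their transcripts varied together. Of 11 such pairs, 3 contain Lamb1 and could not be run. Of the other 8, 0 passed the threshold of 0.05 after Benjamini-Hochberg adjustment, by Pearson or by Spearman correlation in the exact permutation test (two-sided, all 720 pairings of the arrays), and 0 had an unadjusted p under it. Adjusted p-values by exact permutation ran from 0.36 to 0.71 for Pearson and from 0.64 to 0.92 for Spearman. The smallest p that 6 arrays allow is 0.0028 for Spearman correlation, and it can be lower for Pearson correlation.

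Within the laminins, Lama2 and Lamb2 correlated at r = 0.56 (exact permutation p = 0.23, adjusted 0.36) and rho = 0.60 (exact p = 0.24, adjusted 0.64), where r is Pearson's and rho Spearman's. The Pearson value was 0.60 without replicate 1 and 0.78 without the 2 arrays farthest from the median of Lama2, replicates 2 and 5. Lama2 and Lamc1 had r = -0.12 (exact p = 0.71, adjusted 0.71) and rho = 0.37 (exact p = 0.50, adjusted 0.80). Their Pearson correlation was 0.81 without replicate 1 and -0.83 without replicates 2 and 5. Lamb2 and Lamc1 had r = -0.80 (exact p = 0.10, adjusted 0.36) and rho = -0.26 (exact p = 0.66, adjusted 0.82). The negative Pearson value rested on replicate 1, without which it was 0.15, and without replicates 1 and 5 it was -0.20.

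Lama3 with Lamb2 had r = 0.44 (exact p = 0.41, adjusted 0.54) and rho = 0.20 (exact p = 0.71, adjusted 0.82). Lama3 with Lamc1 had r = -0.61 (exact p = 0.18, adjusted 0.36) and rho = -0.37 (exact p = 0.50, adjusted 0.80). The Pearson values of both turned their sign without replicate 1, to -0.33 and 0.38, and without replicates 1 and 6 they were 0.21 and 0.41. Lama3 with Lama2, a pair outside this family of tests, had a Pearson correlation of 0.43 with all arrays and 0.34 without replicate 1.

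Among the receptors, Itgav and Itgb1 had r = 0.66 (exact p = 0.18, adjusted 0.36) and rho = 0.60 (exact p = 0.24, adjusted 0.64). The Pearson value was 0.66 without replicate 1 as well, and 0.92 without replicates 3 and 4, but 0.02 with equal totals and 0.14 with the pseudocount. Itgav and Itgb5 had r = -0.62 (exact p = 0.19, adjusted 0.36) and rho = -0.60 (exact p = 0.24, adjusted 0.64). Without replicate 1 the Pearson value was -0.43, and without replicates 3 and 4 it was -0.97. The 2 beta partners of Itgav thus had opposite signs with it in this scaling, though that of Itgb5 was 0.23 with equal totals. The values without replicates 3 and 4 rest on 4 arrays, and Itgav did not exceed the noise on replicates 2 and 6. Lama2 and Itgb1, a laminin chain and a subunit of its receptor, had r = -0.20 (exact p = 0.60, adjusted 0.69) and rho = 0.09 (exact p = 0.92, adjusted 0.92). Their Pearson correlation was 0.26 without replicate 1 and -0.79 without replicates 2 and 5.

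**Figure D4:**
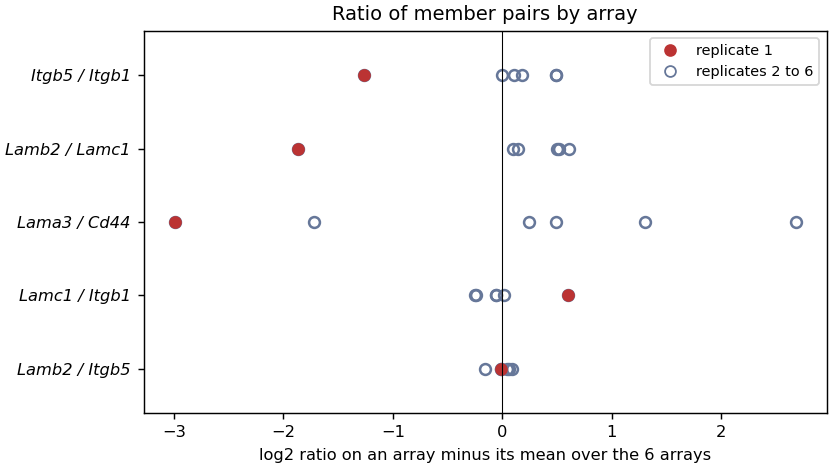
Log2 ratio of 5 pairs of genes on each array minus the mean of that ratio over the 6 arrays (horizontal axis), with replicate 1 filled in red and replicates 2 to 6 as open circles. The ratio of Lamb2 to Itgb5 stays between -0.16 and 0.08, whereas that of Lamb2 to Lamc1 is at -1.87 on replicate 1 and that of Lama3 to Cd44 runs from -2.99 to 2.68, the latter on replicate 6, where Cd44 was within noise (the SD of this ratio was 2.05, and 1.26 with the pseudocount).

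The genes on the array whose pattern was most like that of each member were taken as the 2 with the highest Pearson correlation over the 6 arrays, members left out. For Lama2 these were the myogenic regulator Myod1 (0.94) and the activin antagonist Fst (0.87), at 0.97 each without replicate 1. For Lama3 they were the transcription factor gene Fosl2 (0.90) and the endothelial cadherin Cdh5 (0.88), at 0.85 and 0.77 without replicate 1.

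Lamb2 and Itgb5 shared Igfbp2, which binds insulin-like growth factors, with correlations of 0.96 and 0.97, or 0.87 and 0.91 without replicate 1. The other of the 2 was the DNA polymerase subunit Pold1 for Lamb2 (0.94) and the cytokine receptor Csf2rb2 for Itgb5 (0.98), at 0.80 and 0.93 without replicate 1. On replicate 1 the log2 difference from the mean of the others was -2.22 for Igfbp2 and -2.82 for Csf2rb2, larger in size than the -0.65 of Lamb2 and -0.64 of Itgb5.

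Lamc1 was most like the slow myosin heavy chain gene Myh7 (0.99) and the transcriptional coregulator Cited2 (0.97), at 0.85 and 0.54 without replicate 1. Itgb1 was most like Ywhaz, a 14-3-3 protein gene (0.98), and the cell cycle inhibitor Cdkn1a (0.98), at 0.86 and 0.90 without replicate 1. For Itgav they were the topoisomerase Top1 (0.86) and the thrombospondin Thbs2 (0.83), at 0.87 and 0.92. For Cd44 they were the growth factor Pdgfb (0.93) and the muscle transcription factor Mef2c (0.91), at 0.84 each. With 171 probes and 6 arrays the highest correlations are selected from many, and they carry no test.

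Of a list of 70 other matrix and adhesion genes, 14 were on the array with 15 probes, of which 12 were above 0 on all arrays. Of the further laminin chains among them, Lama4 and Lama5 were above noise on all arrays, and Lamb3, described above, on replicate 4 only. Lama4, an alpha chain of vessels and developing muscle, had intensities of 0.0086, 0.0061, 0.0072, 0.0096, 0.0078 and 0.0056 and a level of -0.21 ± 0.14 (SD, n = 6). Lama5, a widely expressed alpha chain, had 0.0068, 0.0034, 0.0055, 0.0079, 0.006 and 0.0036 and a level of -0.69 ± 0.30 (SD, n = 6). Both had their highest intensity on replicate 4, as had Lamb2 and Itgb5 and also the listed genes Tnxb and Cdh5. After centring, Lamb2 and Itgb5 were highest on replicate 5. Among integrin alpha subunits, Itga8 was above noise on all arrays, at 0.003 to 0.0067, and Itga2 was above 0 on 4 arrays and above noise on 0. Rpsa, a ribosomal protein gene also known as a laminin receptor, was named after its values were seen. Its intensity was 0.0091 on replicate 1, and the other arrays ranged from 0.0008 to 0.0039.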

How the data were processed

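Intensities of 223 probes on 6 arrays of suspended mouse soleus were taken from the deposited table. The authors deposited 1 linear, background-subtracted intensity per probe and array, as the values at or below 0 in the deposited table show. The scanner, background method and reference of the scaling are unnamed in the sources used here. Probes were named through GEO's platform annotation (205 with 1 symbol, 0 with several, 18 unnamed here), and all 9 members matched the RefSeq table (GRCm38.p6) with the same symbol. The array table names no genome build, so probe positions are not given.

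The log2 of each value, with no pseudocount, was centred on each array's median over the 171 probes above 0 on all arrays. Correlations were tested by exact permutation over all pairings of the arrays, two-sided, with Benjamini-Hochberg adjustment over 8 pairs (Python 3.11.15, numpy 2.4.6, pandas 2.3.3), and the code was tested on simulated data. With 1 group, the number of arrays limits the precision. The named genes were the 9 members, the 2 likest genes of each detected member and the probed members of fixed lists. The members, lists and pairs were chosen with earlier results of these data known. Alternatives were other scalings (none, equal totals, quantile), a pseudocount of 0.002, a stricter filter and leaving out each array. No 2 arrays shared more than 8 identical values.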

Additional observations from a re-analysis of the deposited data

Results flagged for a closer look

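A gene is given here when its highest or lowest array lay farther from its neighbour, relative to the range of the 6 arrays, than Dixon's critical ratio allows. Chance gives this in about 1 group in 20, and it was found for 15.8% of the 171 probes. It held for 2 of the 8 detected genes, both through a high value on replicate 1. The ratio was 0.782 for Lamc1, the laminin gamma chain, and 0.693 for Itgb1, the integrin beta subunit. That array also stood apart in its summed intensity, and its muscle fibre markers were high in intensity. The part of either in the values of Lamc1 and Itgb1 was not tested.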

How the results depend on the processing

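The count of detected genes was 8 under the main reading and 6 under the stricter filter, and it stayed at 8 with any array left out. The SD of single genes moved by more than 1.5 times in 13 of 86 recomputed values, those of Lama2, Lamb2, Lamc1, Itgav, Itgb1, Itgb5 and Cd44 among them. The median SD was 0.52 without centring, 0.53 with equal totals and 0.55 with quantile normalization, against 0.35. The median correlation between the genes was 0.42 without centring and ranged from -0.27 to 0.30 with 1 array left out, the highest being without replicate 1. In no setting did a partner pair pass the threshold. With 1 array left out there are fewer pairings, and the smallest possible p is larger. A lone pair could not pass there after adjustment, so those settings could not decide this.

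Directions of several pairs changed. Without centring, the Pearson correlation was 0.51 for Lama2 with Lamc1, 0.069 for Lamb2 with Lamc1, -0.30 for Lama3 with Lamb2, 0.47 for Lama2 with Itgb1, 0.026 for Lamb2 with Itgb1 and 0.073 for Lamc1 with Itgb5. With equal totals it was 0.23 for Itgav with Itgb5. With 1 array left out, it ranged from -0.52 to 0.81 for Lama2 with Lamc1, from -0.88 to 0.15 for Lamb2 with Lamc1, from -0.33 to 0.72 for Lama3 with Lamb2, from -0.83 to 0.38 for Lama3 with Lamc1, from -0.59 to 0.26 for Lama2 with Itgb1 and from -0.93 to 0.46 for Lamc1 with Itgb5. The cause was not tested. The pairs Lamb2 with Itgb5, Lamc1 with Itgb1 and Lama3 with Cd44 kept their direction in each alternative run for them, of which the stricter filter was not run for Lama3 with Cd44 because Cd44 did not pass it. These alternatives were chosen after seeing the data. Signal close to background limits Itgav and Cd44 and, to a lesser degree, Lama2.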
